A study of Mus musculus with 6 samples.

Results

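The genes examined encode 10 enzymes and transporters that make, lengthen, package or break down ceramides and the other lipids of the epidermal barrier: Sptlc1, Sptlc2, Degs1, Degs2, Cers3, Elovl1, Elovl4, Ugcg, Abca12 and Acer1. Each was taken by its symbol wherever a probe set was annotated with that gene alone, and all 10 were found, among 18193 genes named by 1 symbol on the array, on 24 of its 45101 probe sets. Expression was measured on 1-colour Affymetrix arrays in cultures of keratinocytes, which form the epidermis, prepared from newborn mice of a C57BL6/FVB background. In knockout pools Gpx4 had been deleted by a cre recombinase under the keratin 14 promoter, active in basal keratinocytes. Gpx4 encodes an enzyme that reduces lipid hydroperoxides in membranes, and the arrays do not measure its protein. Control pools are labelled only as control, with no allele named. Each of 3 litters, A, B and C, gave 1 knockout array and 1 control array, and every array holds RNA of pooled cells, so differences between single animals are not measured. All media held 100 nM sodium selenite, the selenium source of selenoproteins, for both genotypes.

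Ceramides consist of a sphingoid base joined to a fatty acid. Serine palmitoyltransferase starts the base, ceramide synthases add the fatty acid, and desaturases finish the ceramide. In the outer epidermis the fatty acid is extended to an extreme length, the ceramide is masked with glucose, loaded into lamellar bodies and secreted, and the freed ceramides then fill the space between the dead cells of the cornified layer as the barrier against water loss. In human patients, loss of ABCA12, CERS3 or ELOVL4 function is a known cause of ichthyosis.

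The knockout arrays carried less Gpx4 signal in each litter. Its brightest probe set read 212, 259.7 and 216 in knockouts of litters A, B and C, against 497, 551 and 536 in controls, and the log2 change was -1.15 ± 0.09 (SE, n = 3 litters; limma adjusted p = 0.0206). It did not pass as deposited (-1.34, adjusted p = 0.122), without litter A (adjusted p = 0.162) or without litter B (adjusted p = 0.278). The other Gpx4 probe set was also lower in the knockout of every litter, with a log2 change of -1.40 ± 0.21, but did not pass (limma adjusted p = 0.063). The labels do not name the deleted part of the gene. The deposited intensities were not on a common scale, with a trimmed mean up to 1.57-fold above that of the dimmest array, and the control of litter C was the brightest. Intensities, those of Gpx4 above among them, were therefore quantile-normalized unless given as deposited. Log2 changes are knockout minus control, estimated in limma on log2(intensity + 16) with a litter block. On that scale the changes of dim genes come out smaller than they are. Krt5 and Krt14, the main keratins of the basal layer, were bright in every array. Krt14 lay between 6607 and 6740 in knockouts and between 6278 and 6808 in controls, and the sum of 7 basal markers, made up mostly by these keratins, was between 18262 and 18617 in knockouts and between 17690 and 20505 in controls. None of the 7 passed, but 6 were lower in the knockouts of both litters A and B, against 31.1% of all probe sets, and 3 passed on the lower side without litter C (Trp63, Col17a1 and Krt15), where 3.02% of all probe sets did. Krt15, another basal keratin, had 11, 1.83 and 2.2 in knockouts, against 268, 239 and 5.58 in controls, so it was near the floor in every knockout and in the control of litter C (log2 change -2.49 ± 0.65, adjusted p = 0.164). The pools also differed in sex-linked RNA: the Y-linked Eif2s3y was between 0.667 and 4.62 in knockouts and between 155 and 185 in controls. The Y-linked Kdm5d and Uty were at most 3.28 and 3.57 in knockouts, and at least 48.4 and 43.3 in controls. Xist was between 1214 and 1260 in knockouts and between 389 and 536 in controls. Of these 4 genes 1 passed on the higher side and 3 on the lower, against 0.158% and 0.262% of all probe sets. The split followed genotype in every litter, so sex and genotype cannot be told apart in these arrays, and the part of sex in the results was not tested.

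None of the 10 genes passed the threshold, an adjusted p of 0.05 over all 45037 probe sets tested. Across the array 0.420% of probe sets passed, 0.158% higher and 0.262% lower. Of the 10 genes 2 had an unadjusted p under 0.05, Abca12 on the higher side and Elovl1 on the lower side, against 14.6% of all probe sets, 7.06% higher and 7.58% lower. The other probe sets of these genes did not pass either: over all 24 the adjusted p lay between 0.169 and 0.999, and 4 had an unadjusted p under 0.05. The median log2 change of the 10 genes was -0.11, against 0.00185 over all probe sets. It was -0.31 as deposited, where the median of all probe sets was -0.066. By litter it was 0.12 (A), 0.02 (B) and -0.21 (C). In 5 of the 10 genes the knockout minus control difference of litter C had the opposite sign to that of litters A and B, a pattern shown by 25.8% of all probe sets. With 3 litters, differences as small as those seen in most of these genes may go undetected, and no detection limit was computed. The intervals are given with each gene.

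**Figure D1:**
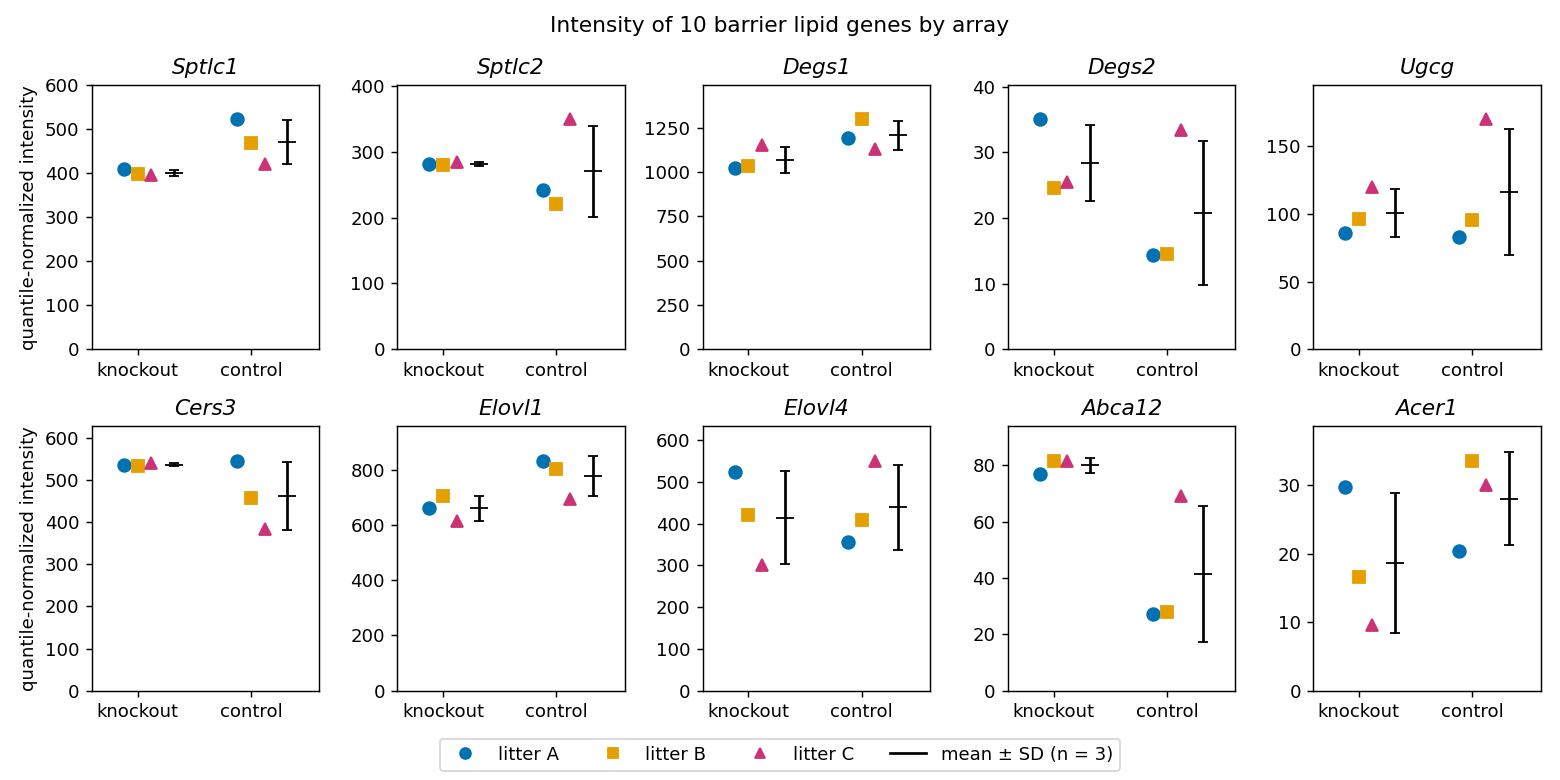
Quantile-normalized intensity of the brightest probe set of each of the 10 genes (vertical axes, each starting at 0), with knockout arrays left of control arrays, 1 point per litter, and the mean with its SD at the right of each group. Abca12 is the gene whose knockout arrays all lie above its control arrays, Sptlc1 the one whose knockout arrays all lie below, and the control of litter C stands away from the other controls in Sptlc2, Degs2, Ugcg and Abca12.

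Abca12, the lamellar body transporter that moves glucosylceramides into these secretory granules, had the largest log2 change of the 10 genes. Its probe set had intensities of 77, 81.7 and 81.5 in knockouts of litters A, B and C, against 27.1, 27.8 and 69.2 in controls. The groups did not overlap, as in 8.79% of all probe sets on the higher side, but the control of litter C lay close to the knockouts and far above the other controls. The log2 change was 0.82 ± 0.22 (SE, n = 3 litters), or 1.76-fold higher, with a 95% interval between 0.30 and 1.34 and a limma adjusted p = 0.169. By litter it was 1.11 (A), 1.16 (B) and 0.19 (C). Without litter C it was 1.11 ± 0.16 and passed (limma adjusted p = 0.0123), where 2.90% of all probe sets passed on the higher side. Leaving out the control of litter C alone, with no block, gave 1.10 (adjusted p = 0.00558). In the intensities as deposited that control stood at 91.4, above the knockouts at 66.3, 86 and 68.6, and the groups overlapped, with a log2 change of 0.62 (adjusted p = 0.564).

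The start regions of Abca12, Elovl4 and Elovl1 are shown because these genes stand for the patterns seen: a gene higher in the knockout, a gene whose litters opposed each other and a gene lower in every litter. Each runs from 250 bases before to 50 after an annotated start (RefSeq, GRCm38.p6), on the gene's strand, 5′ to 3′. Capitals mark matches on either strand to the AP-1 motif TGANTCA, the grainyhead motif AACCGG, the CCAAT box CCAAT, the GC box GGGCGG or the E-box CACGTG, where N is any base.
Abca12, chr1:71414861-71415160, minus strand: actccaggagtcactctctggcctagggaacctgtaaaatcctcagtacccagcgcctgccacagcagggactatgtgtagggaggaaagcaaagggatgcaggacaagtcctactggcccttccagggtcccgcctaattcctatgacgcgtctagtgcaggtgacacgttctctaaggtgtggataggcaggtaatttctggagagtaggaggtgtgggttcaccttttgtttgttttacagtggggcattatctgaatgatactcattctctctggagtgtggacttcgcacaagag
Elovl4, chr9:83806256-83806555, minus strand: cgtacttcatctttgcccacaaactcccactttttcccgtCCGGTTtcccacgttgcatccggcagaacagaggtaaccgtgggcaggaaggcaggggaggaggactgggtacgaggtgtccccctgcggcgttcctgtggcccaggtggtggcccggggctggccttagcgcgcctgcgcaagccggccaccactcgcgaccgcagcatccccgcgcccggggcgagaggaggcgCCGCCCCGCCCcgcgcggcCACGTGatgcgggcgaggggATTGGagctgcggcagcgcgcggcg
Elovl1, chr4:118427843-118428142, plus strand, the more upstream of its annotated starts: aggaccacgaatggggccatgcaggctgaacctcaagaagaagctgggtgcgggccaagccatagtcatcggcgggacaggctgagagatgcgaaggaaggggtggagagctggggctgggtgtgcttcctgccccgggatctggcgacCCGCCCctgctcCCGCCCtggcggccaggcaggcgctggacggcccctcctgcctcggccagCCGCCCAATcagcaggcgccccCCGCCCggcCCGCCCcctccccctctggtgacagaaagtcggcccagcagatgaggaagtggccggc

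The Abca12 window held none of these motifs and 51.3% G and C. The Elovl4 window held 1 grainyhead match, 1 CCAAT match, 2 GC box matches and 1 E-box, and 71% G and C. The Elovl1 window held 1 CCAAT match and 5 GC box matches. It is the more upstream only among the Elovl1 starts with a window, as the annotated gene begins further upstream, at 118426874. All 10 genes had a window, 11 windows in all. The AP-1 motif was in 0 of the 11, against 7.81% of all 32851 windows, the grainyhead motif in 1 (6.83%), the CCAAT box in 4 (37.41%), the GC box in 7 (35.66%) and the E-box in 2 (7.15%). These are matches of letters in short windows, and no binding was measured.

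Sptlc1 and Sptlc2 encode the paired subunits of serine palmitoyltransferase, which joins serine to a fatty acyl group in the first step of the pathway. Sptlc1 had intensities of 409, 398 and 397 in knockouts of litters A, B and C, against 522, 469 and 421 in controls. All knockouts lay below all controls, as in 9.43% of all probe sets, and the controls spread more widely than the knockouts. The log2 change was -0.22 ± 0.09 (95% interval -0.44 to 0.00351; limma adjusted p = 0.348). Its other probe sets were dimmer and did not share one sign, with log2 changes of 0.16, 0.08 and -0.29, and their groups overlapped. Sptlc2 had 281, 279 and 285 in knockouts, against 242, 219.97 and 349 in controls. The knockouts were nearly alike and the control of litter C was the highest array, so the groups overlapped. The log2 change of Sptlc2 was 0.08 ± 0.14 (interval -0.24 to 0.41), and it was -0.12 as deposited and -0.06 with equal array medians, so its direction depended on the scaling. Its dimmer probe sets gave 0.05 ± 0.14 and 0.15 ± 0.16, the second higher in the knockout of every litter, and the groups overlapped in both.

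Degs1 and Degs2 encode dihydroceramide desaturases. Degs1 introduces the double bond that turns dihydroceramide into ceramide, and Degs2 can also add the hydroxyl group of phytoceramides, which are prominent in skin. Degs1 had 1022, 1032 and 1155 in knockouts, against 1191, 1296 and 1130.4 in controls. The knockout of litter C lay above its own control, whereas in litters A and B the knockout lay below. The log2 change was -0.17 ± 0.09 (interval -0.39 to 0.05; adjusted p = 0.46), and the other Degs1 probe set gave -0.17, with all knockouts below all controls. Degs2 was dim, with 35, 24.6 and 25.5 in knockouts, against 14.3, 14.5 and 33.4 in controls. The control of litter C reached the knockouts, and the other controls lay below them all. The log2 change of Degs2 was 0.30 ± 0.23 (interval -0.24 to 0.85; adjusted p = 0.597), or 0.75 (A), 0.41 (B) and -0.25 (C). On the deposited scale between 45.4% and 50.1% of probe sets of each array lay under 16, and the lowest Degs2 values are in a range where the added 16 shortens a fold change. With 1 added in place of 16 the log2 change of Degs2 was 0.53.

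Cers3, the ceramide synthase that takes fatty acids of ultra-long chain length, was measured on 1 probe set. It had 536, 533 and 541 in knockouts, against 546, 459 and 383 in controls. The knockouts were nearly alike, the controls spread, and the groups overlapped through the control of litter A. The log2 change was 0.22 ± 0.11 (interval -0.05 to 0.50; adjusted p = 0.437), or -0.03 (A), 0.21 (B) and 0.48 (C). It was 0.03 as deposited and 0.09 without litter C.

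Elovl1 and Elovl4 encode elongases that extend saturated and very long fatty acids for ceramides. Elovl1 acts on saturated very long chains, and Elovl4 makes the ultra-long chains that Cers3 uses. The brightest Elovl1 probe set had 662, 705 and 614 in knockouts, against 832, 803 and 693 in controls. The knockout was lower in each litter, but the knockout of litter B stood above the control of litter C. The log2 change was -0.23 ± 0.08 (interval -0.42 to -0.03; adjusted p = 0.278), or -0.32 (A), -0.18 (B) and -0.17 (C). The next brightest Elovl1 probe set had a log2 change of -0.30 ± 0.08 (adjusted p = 0.181) and the third -0.20 ± 0.09 (adjusted p = 0.351), and in both the knockouts all lay below the controls. The dimmest gave 0.08. All but the third are of the platform's x type, whose probes may also match other transcripts.

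Elovl4 differed in direction between litters. Its brighter probe set had 524, 419.6 and 301 in knockouts of litters A, B and C, against 356, 409.8 and 551 in controls. The knockout of litter A and the control of litter C were the highest arrays, and the groups overlapped. The log2 changes were 0.54 (A), 0.03 (B) and -0.84 (C), with an estimate of -0.09 ± 0.24 (interval -0.67 to 0.49; adjusted p = 0.909). The other probe set had 365, 338 and 347 in knockouts, against 257, 236 and 685 in controls. There the control of litter C stood alone, with log2 changes of 0.48 (A), 0.49 (B) and -0.95 (C). Without litter C the brighter probe set gave 0.29 (adjusted p = 0.286), so the sign of the estimate rested on that litter.

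**Figure D2:**
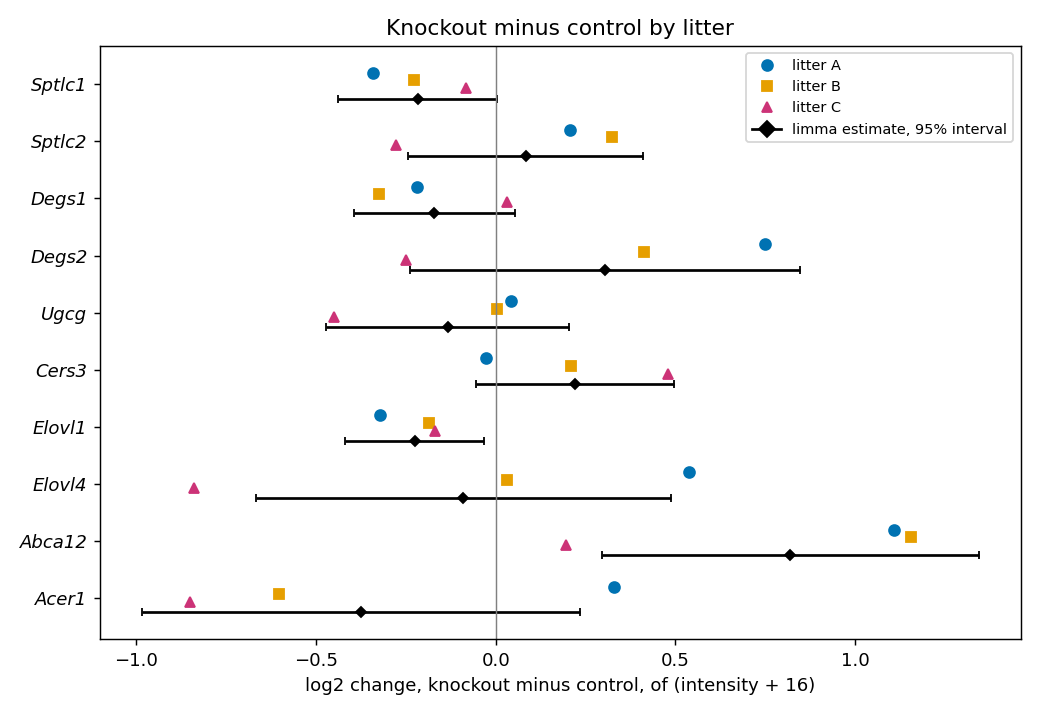
Log2 change of each of the 10 genes, knockout minus control, on the brightest probe set (horizontal axis, log2 of intensity + 16). Coloured points are litters A, B and C and black diamonds are limma estimates with 95% intervals. The intervals of Abca12 (0.30 to 1.34) and Elovl1 (-0.42 to -0.03) lie to either side of 0, and the litter C point lies left of those of litters A and B in Sptlc2, Degs2, Ugcg, Elovl4, Abca12 and Acer1.

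Ugcg, the glucosylceramide synthase that adds the glucose before lamellar body loading, was highest in the control of litter C on every one of its probe sets. Its brightest probe set had 86, 96.3 and 120.2 in knockouts, against 83.1, 95.9 and 169.8 in controls. Knockout and control were nearly alike in litters A and B, and the control of litter C was the highest array. The log2 change was -0.13 ± 0.14 (interval -0.47 to 0.20; adjusted p = 0.723), and without litter C it was 0.02. The next brightest had 86.6, 83.6 and 66.3 in knockouts, against 39.7, 47.6 and 222 in controls. On that probe set the control of litter C lay far above every other array, and the log2 changes of 0.88 (A), 0.65 (B) and -1.53 (C) gave an estimate of -0.00247 ± 0.45. The third gave 0.45 (A), 0.41 (B) and -0.73 (C), with an estimate of 0.04 ± 0.25, and the dimmest, at most 12.7 in knockouts and 16.7 in controls, gave 0.06 ± 0.15.

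Acer1, the alkaline ceramidase of differentiated epidermis that splits ceramide into a sphingoid base and a fatty acid, was dim on its probe sets. The brighter had 29.8, 16.6 and 9.53 in knockouts, against 20.4, 33.6 and 30 in controls. The knockout was higher in litter A and lower in litters B and C, and the groups overlapped. The log2 change was -0.37 ± 0.25 (interval -0.98 to 0.24; adjusted p = 0.561). It was -0.76 without litter A (adjusted p = 0.459) and -0.13 without litter C (adjusted p = 0.848). The other had 14.4, 24.6 and 10.1 in knockouts, against 28.4, 37.9 and 22.9 in controls. It was lower in the knockout of every litter, with a log2 change of -0.51 ± 0.16 (interval -0.89 to -0.13; adjusted p = 0.218), although the knockout of litter B stood above the control of litter C.

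The litter C arrays were set beside those of litters A and B within each genotype. Among knockouts the litter C array lay 0.35 above the mean of litters A and B for Ugcg, 0.17 above it for Degs1, 0.03 for Abca12 and 0.02 for Sptlc2 (log2), and 0.61 and 0.60 below it for Elovl4 and Acer1 (-0.61 and -0.60). Among controls the litter C array lay 0.97 above for Abca12, 0.82 for Ugcg, 0.70 for Degs2, 0.57 for Sptlc2 and 0.51 for Elovl4. The same control lay below the other controls for Sptlc1 (-0.23), Degs1 (-0.13), Cers3 (-0.37) and Elovl1 (-0.23). These offsets depended on the scaling, as in the intensities as deposited that control was the highest control for each of these genes. It stood there at 575 for Sptlc1, against 432 and 490 in the controls of litters A and B, and at 521 for Cers3, against 454 and 480. Over the 10 genes the median of this offset was -0.00401 among knockouts and 0.31 among controls, and over all probe sets it was -0.00471 and -0.00738. With 1 array of each genotype in a litter, the offset was described and not tested.

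**Figure D3:**
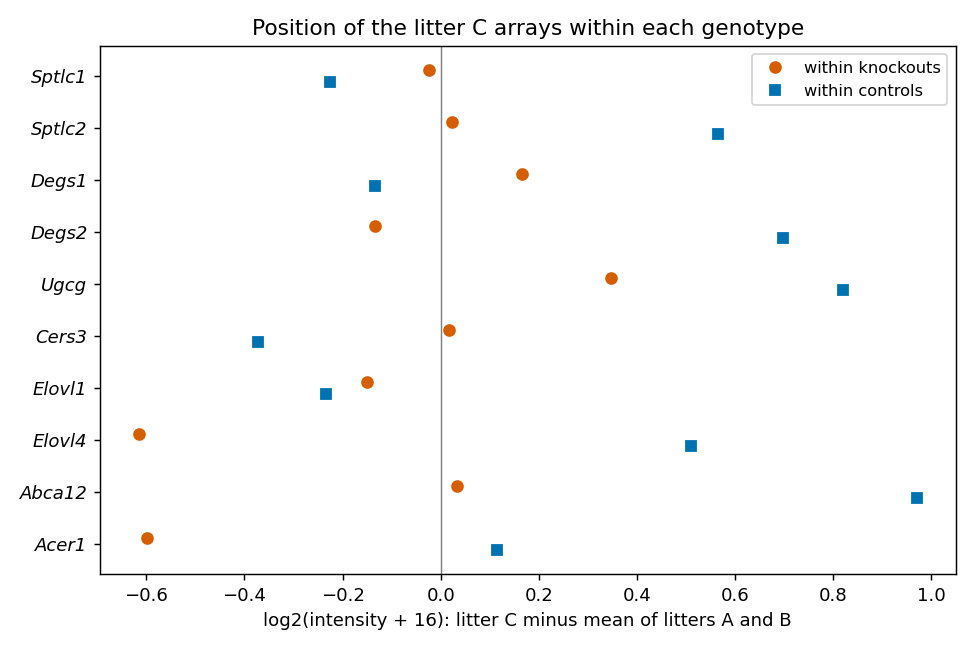
Log2(intensity + 16) of the litter C array minus the mean of litters A and B, within knockouts (circles) and within controls (squares), for the brightest probe set of each of the 10 genes. Intensities are quantile-normalized. Controls reach 0.97 for Abca12 and 0.82 for Ugcg, and knockouts go down to -0.61 for Elovl4.

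Several genes of terminal differentiation were also highest in the same control. The intensities of 9 suprabasal keratinocyte markers summed to between 3964 and 5241 in knockouts and between 5248 and 10520 in controls, with the highest sum in the control of litter C (10520) and 7 of the 9 markers highest there among controls, against 36.3% of all probe sets. Most of that sum came from Calm4 (3785) and Sbsn (3493). Krt1 and Dsg1a were instead lowest there among controls, Krt1 with 351 against 917 and 1299 in the controls of litters A and B, and Dsg1a with 509 against 680 and 652. Over the 9 markers the median log2 change was -0.74, and 1 passed, on the lower side, against 0.262% of all probe sets. Of the 9, 6 had an unadjusted p under 0.05 on the lower side and 1 on the higher, against 7.58% and 7.06% of all probe sets. Without litter C 5 passed on the lower side and 1 on the higher, where 3.02% and 2.90% of all probe sets did. Lor, which encodes loricrin, was higher in the knockout of every litter (log2 change 0.39 ± 0.15, adjusted p = 0.304). Krt10, a keratin of the first suprabasal layers, had 215, 252 and 284 in knockouts, against 590.4, 737 and 760.4 in controls, and fell (log2 change -1.42 ± 0.08, limma adjusted p = 0.00922). The late marker Flg, which encodes filaggrin, had 149.6, 149.4 and 234 in knockouts, against 188, 212 and 638 in controls, and did not pass (-0.72 ± 0.21, adjusted p = 0.2). Involucrin (Ivl), a precursor of the cornified envelope, had 317, 324 and 192 in knockouts, against 129, 202 and 449 in controls, so that, as for Elovl4, the knockout was the higher array in litters A and B and the lower in litter C. In bulk RNA of cultured pools, fewer cells of a type and less RNA per cell cannot be told apart.

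Among markers of other cells, the melanocyte sum and Krt79 differed between the groups. The sums of the fibroblast, immune cell and endothelial markers overlapped. The sum of 7 melanocyte markers was between 6326 and 6951 in knockouts and between 4562 and 4723 in controls. Of the 7, 2 rose, against 0.158% of all probe sets. They were the pigment enzyme Tyrp1 (log2 change 0.69 ± 0.08) and Mlana (1.11 ± 0.14, with limma adjusted p = 0.038 and 0.0429). The sum of 7 fibroblast markers was between 364 and 555 in knockouts and between 169 and 514 in controls, with 514 in the control of litter C. The controls of litters A and B had 169 and 171. None of the 7 passed (median log2 change 0.40). In both litters A and B 5 of the 7 were higher in the knockout and 0 lower, against 31.2% and 31.1% of all probe sets. Without litter C 3 passed on the higher side (Col1a1, Col1a2 and Pdgfra) and 0 on the lower, against 2.90% and 3.02% of all probe sets. Of 6 sebaceous and upper follicle markers 1, Krt79, fell (-2.05 ± 0.23, adjusted p = 0.0371), against 0.262% of all probe sets. The sum of the 6 was between 167 and 251 in knockouts and between 463 and 814 in controls. Without Krt79 the sum of the other 5 was 130, 133 and 119 in knockouts of litters A, B and C, against 95.3, 109 and 402 in controls. In the knockouts of both litters A and B 4 of the 6 were higher, against 31.2% of all probe sets. The lipid droplet gene Cidea had 31.8, 38.3 and 29.3 in knockouts, against 27.7, 34.2 and 253 in controls. The sum of 6 immune cell markers was between 84 and 121 in knockouts and between 81.4 and 105.5 in controls, and that of 4 endothelial markers between 23.3 and 32.7 in knockouts and between 17.9 and 29.8 in controls. None of the 30 markers in these 5 lists was at 0 in all arrays, but this does not show that each was detected. Pecam1, Cd3e and Emcn, for example, were at most 6.6, 7.12 and 10.03 in any array. Krt10, Tyrp1, Mlana and Krt79 did not pass as deposited (adjusted p = 0.0622, 0.539, 0.209 and 0.0622), nor without litter A or litter B. Tyrp1 did not pass with equal array medians either (adjusted p = 0.185), and neither Tyrp1 nor Mlana with a pseudocount of 64 (adjusted p = 0.0529 and 0.0617). The part of these markers in the values of the barrier lipid genes was not tested.

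The other genes of the pathway were counted in lists by role, with the same test. Of 11 other genes of ceramide synthesis and its control none passed (median log2 change -0.02). Sptssa, a small subunit that activates serine palmitoyltransferase, had 819, 909 and 1087 in knockouts, against 1134, 1145 and 1399 in controls, and its log2 change was -0.38 ± 0.08 (adjusted p = 0.0995). The knockout was lower in every litter, and the knockout of litter C stood just below the control of litter A. Cyp4f39, whose human counterpart hydroxylates the end of ultra-long fatty acids, had a log2 change of 0.53 ± 0.13 (adjusted p = 0.154), and Cers2, a ceramide synthase for very long chains, one of 0.45 ± 0.18 (adjusted p = 0.33). Sptssb, the other small subunit, was at most 9.8 in knockouts and 6.28 in controls (0.23 ± 0.10, adjusted p = 0.346). Without litter C 1 of the 11 passed on the higher side, Cyp4f39, and 2 on the lower, Sptssa and Sptlc3, an alternative subunit of serine palmitoyltransferase, where 2.90% and 3.02% of all probe sets passed.

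Of 25 genes of ceramide turnover, sphingomyelin and glycosphingolipids none passed (median -0.08). The sphingomyelin synthases differed in sign: Sgms2 had a log2 change of 0.56 ± 0.17 and Sgms1 one of -0.27 ± 0.09 (adjusted p = 0.207 and 0.224). Sphk1, a kinase of sphingosine, had one of -0.50 ± 0.16 (adjusted p = 0.233) and the ceramidase Acer3 one of -0.22 ± 0.11 (adjusted p = 0.409). Without litter C Sgms2 passed on the higher side (2.90% of all probe sets) and none on the lower (3.02%).

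Of 22 other genes of fatty acid elongation and activation none passed (median -0.13), and 9 had an unadjusted p under 0.05 on the lower side and 2 on the higher, against 7.58% and 7.06% of all probe sets. Scd1, the desaturase that makes monounsaturated fatty acids, had 153, 237 and 274 in knockouts, against 508, 549 and 465 in controls. All knockouts lay below all controls, and the log2 change was -1.17 ± 0.17 (adjusted p = 0.0577). Slc27a3, of the fatty acid transport protein family, was dim, with at most 4.23 in knockouts and between 15.2 and 39.6 in controls (-1.12 ± 0.19, adjusted p = 0.0772). Tecr and Hacd2 encode enzymes that complete each elongation cycle begun by Elovl1 and Elovl4. Tecr had 684, 640 and 720.3 in knockouts, against 1158, 1207 and 836 in controls, and its log2 change was -0.62 ± 0.14 (adjusted p = 0.126). Hacd2 had one of -0.40 ± 0.09 (adjusted p = 0.122). Hsd17b12, another enzyme of that cycle, was higher in the knockout of every litter (0.24 ± 0.08, adjusted p = 0.246). Without litter C 5 of the 22 passed on the lower side, Scd1, Scd2, Slc27a3, Tecr and Hacd2, and none on the higher, against 3.02% and 2.90% of all probe sets in that fit.

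Of 12 other genes of acylceramide and the cornified lipid envelope none passed (median 0.04). In both litters A and B the knockout was higher in 7 of the 12 and lower in 1, against 31.2% and 31.1% of all probe sets, and in litter C it was lower in 10 of the 12, against 49.4%. The control of litter C was the highest control in 10 of the 12, against 36.3%. Nipal4, mutated in a form of human ichthyosis, had 808, 713 and 499 in knockouts, against 457, 509.7 and 315 in controls, and was higher in every litter (0.64 ± 0.10, adjusted p = 0.0621). Tgm1, the transglutaminase that ties proteins and lipids into the envelope, had 301, 255 and 211 in knockouts, against 78.7, 101 and 199.6 in controls. The knockouts all lay above the controls, with the control of litter C close to them, as for Abca12, and the log2 change was 1.01 ± 0.29 (adjusted p = 0.196). Sult2b1, the cholesterol sulfotransferase, had a log2 change of 0.51 ± 0.18 (adjusted p = 0.261), and Pnpla1, which makes acylceramide, one of -0.58 ± 0.20 (adjusted p = 0.255). Without litter C 3 passed on the higher side, Tgm1, Nipal4 and Sult2b1, and none on the lower, against 2.90% and 3.02% of all probe sets.

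**Figure D4:**
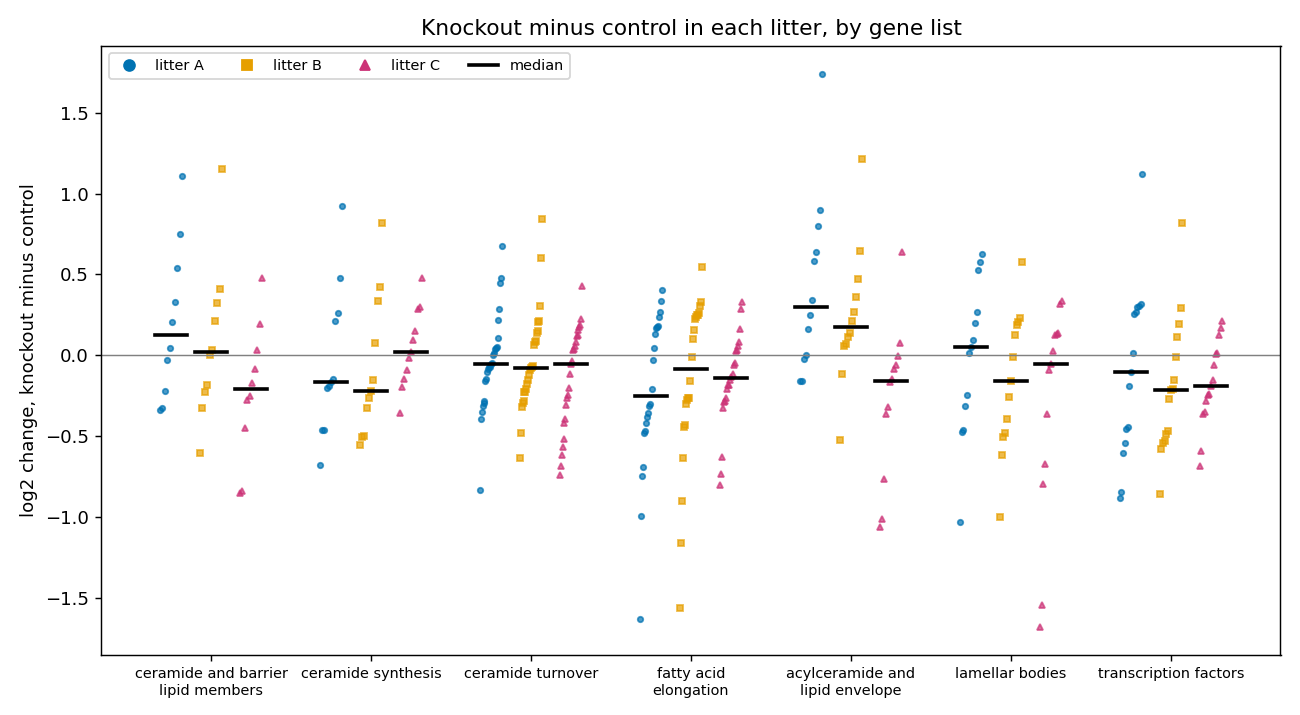
Log2 change, knockout minus control, of each measured gene in litters A, B and C, for the 10 genes at the left and for 6 lists of other genes of the pathway, with the median as a black bar. In the 10 genes the medians are 0.12 (A), 0.02 (B) and -0.21 (C), and in the acylceramide and lipid envelope list 0.30 (A), 0.17 (B) and -0.16 (C).

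Of 13 genes of lamellar bodies and the proteases and proteins they deliver 1 fell (median -0.16), against 0.262% of all probe sets. Klk5, a kallikrein protease released from lamellar bodies, had 61.7, 73.5 and 81.8 in knockouts, against 142, 163 and 269 in controls (log2 change -1.19 ± 0.15, adjusted p = 0.0429). Klk7, a protease of the same family, had 909.6, 986 and 1201 in knockouts, against 1133, 1518 and 3883 in controls (-0.87 ± 0.24, adjusted p = 0.184). In both genes the control of litter C was the highest array, and every knockout of Klk5 lay below every control. Klk5 did not pass as deposited (adjusted p = 0.134), without the block (0.0774), with a pseudocount of 64 (0.0673), without litter A (0.233) or without litter B (0.407). Abca1, which exports cholesterol and belongs to the same transporter family as Abca12, had a log2 change of 0.43 ± 0.12 (adjusted p = 0.187), and Tmem79, a membrane protein of the lamellar body secretory system, one of -0.34 ± 0.12 (adjusted p = 0.275). Without litter C Abca1 passed on the higher side and Klk5, Klk7 and Tmem79 on the lower, where 2.90% and 3.02% of all probe sets passed.

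Of 15 transcription factors of barrier lipid genes none passed (median -0.08), and 6 had an unadjusted p under 0.05 on the lower side and 1 on the higher, against 7.58% and 7.06% of all probe sets. Trp63, the master factor of stratified epithelia, had 914, 785 and 766 in knockouts, against 1257, 1104 and 991 in controls, with all knockouts below all controls (log2 change -0.43 ± 0.08, adjusted p = 0.0816). The sterol factors Srebf1 and Srebf2 had log2 changes of -0.48 ± 0.11 and -0.43 ± 0.10 (adjusted p = 0.126 and 0.147), and Grhl1, a grainyhead factor of the epidermis, one of -0.39 ± 0.10 (adjusted p = 0.153). Without litter C 1 passed on the higher side, Ppard, and 6 on the lower, Trp63, Srebf1, Srebf2, Grhl1, Gata3 and Rxra, against 2.90% and 3.02% of all probe sets.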

How the data were processed

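The authors deposited linear intensities, 1 for each probe set on each array. Their background correction, probe summary and scaling are not given in the sources used here. Trizol-extracted RNA carried a biotin label, per the labels. Without 64 control probe sets, 45037 were tested. Intensities were quantile-normalized between the 6 arrays, log2(intensity + 16) was fitted in limma 3.58.1 under R 4.3.3 (lmFit, eBayes with trend) with litter as a block, and two-sided p-values were adjusted by Benjamini-Hochberg over all 45037, with a threshold of 0.05. The labels name the litter, which pairs the arrays. Deviations from the group means correlated between arrays of a litter with r = 0.175 (A), 0.047 (B) and 0.208 (C). Precision is limited by the small number of arrays.

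Symbols were those of GEO's 2016 platform annotation: 34945 probe sets had 1 gene, 932 several and 9160 were not listed. A gene with several probe sets was represented by the brightest over all 6 arrays. The genes, lists, tests and alternatives were chosen with earlier results of these data known, and 10 of the 168 list entries were not matched and are not used here. The text names every gene of the set, Gpx4, and up to 4 genes of each other list by smallest unadjusted p, and markers where they stand beside a result. Ppard, Gata3, Rxra, Scd2 and Sptlc3 are named for passing without litter C, and these and Hsd17b12 were chosen after their values were seen. Alternatives were the deposited scaling, a shift to equal medians, pseudocounts of 1 and 64, a filter on dim probe sets, no block, each litter left out, and the mean of a gene's probe sets. The fit was tested on simulated data that held no litter differences and no deviating array, so that test does not cover these features of the arrays. Start regions were searched in Python 3.11.15.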

Additional observations from a re-analysis of the deposited data

How the results depend on the processing

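The count of the 10 barrier lipid genes that passed was 0 under 9 of the 10 alternatives named under the processing, the fits without litter A or litter B among them. It was 1, Abca12, without litter C, so with a litter left out it lay between 0 and 1, and it was 1 without the control of litter C and with no replicate block, an alternative chosen after seeing the data. With no replicate block and all arrays, 0 of the 10 passed and the paired and unpaired fits gave the same call for each of them. Their median log2 change was -0.11, and it was -0.31 as deposited, 0.089 without the control of litter C, and between -0.15 and 0.06 with a litter left out. Without Benjamini-Hochberg adjustment, limma gave an unadjusted p under 0.05 for between 0 and 6 of the 10. The count over all 45037 probe sets also differed between settings. The 10 gave 6 without litter C and without its control, where 8824 and 8634 of all probe sets had such a p. They gave 0 as deposited and without litter B, where 4411 and 3695 did. In the reported fit they gave 2, where 6592 did. Over all probe sets 189 passed, 71 higher and 118 lower. As deposited 35 passed, 3 higher and 32 lower. With equal medians 710 passed (198 higher, 512 lower), with pseudocounts of 1 and 64 601 and 59, without the 40% dimmest probe sets 1130, and without the control of litter C 2413. With a litter left out the count lay between 0 (3695 at an unadjusted p under 0.05) and 2666, the lowest without litter B and the highest without litter C, and it was 3 without litter A. The log2 change of Gpx4 was -1.34 as deposited and did not pass (adjusted p = 0.122), and lay between -1.21 and -1.10 with a litter left out, not passing without litter A or B. The estimates that turned sign were those of Sptlc2, Ugcg and Elovl4. Sptlc2 was -0.12 as deposited and -0.059 with equal medians, and lay between -0.036 (without litter B) and 0.26 with a litter left out. Ugcg lay between -0.22 and 0.023 (without litter C), and was 0.14 without the control of litter C. Elovl4 lay between -0.40 and 0.29 (without litter C), and was 0.081 without that control. The cause was not tested. Degs2 and Acer1 were dim, and the deposited table gives no signal over background.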
